A study of Mus musculus with 48 samples.

Results

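Mouse C2C12 myoblasts that had been stretched for 6 h were compared with myoblasts kept for the same time without stretching. The comparison holds 8 of the 48 libraries of the series, 4 stretched and 4 non-stretched, which were chosen by the stage, treatment and time in their labels. All 47480 gene symbols of the count table were considered, and 14938 of them had enough counts to be tested.

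C2C12 is an established mouse line of unmodified, proliferating myoblasts that can fuse into muscle cells when serum is withdrawn. The stretched group was grown on flexible, collagen I-coated plates and deformed in cycles in all directions of the plane by a Flexcell device. The non-stretched group was grown on the same kind of plate at 6 h without deformation, so plate, coating, medium and genotype were shared by both groups. Each group holds replicates 7 and 8 from an experiment coded B27 and replicates 9 and 10 from an experiment coded B31. The sources describe 2 independent experiments with 2 samples each, so p-values measure the spread between samples of which pairs may share a culture. Other groups that serve for comparison here are myoblasts at 1 h and 3 h and differentiated C2C12 cells at 6 h, each with 4 stretched libraries and 4 non-stretched libraries of its own. The labels list the molecule as nuclear RNA, whereas the methods of the study describe RNA from whole cells and stranded mRNA libraries, and the counts cannot tell these apart.

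Cells that carry more unfolded protein in the endoplasmic reticulum (ER) than their chaperones can hold activate the unfolded protein response. Its membrane sensors IRE1 (gene Ern1), PERK (gene Eif2ak3) and ATF6 then switch on ER chaperones, the machinery that takes misfolded proteins back to the cytosol for degradation, and, through ATF4, genes for amino acid supply. The heat shock response is the counterpart in the cytosol, driven by HSF1. Sterol synthesis is controlled at another membrane step, in which SREBP factors leave the ER for the Golgi when sterols are scarce and Insig1 holds them back when sterols are plentiful. TFEB and TFE3 are the factors that drive lysosome genes.

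The promoters of several genes of these groups are shown first, because the named sequence elements through which the ER stress, sterol and lysosome factors are known to act can be read in them. Each line gives the 250 bases before a RefSeq start site in the GRCm38.p6 assembly (the assembly also called mm10), 5′ to 3′ on the strand of the gene, with the element in capitals. The ER stress response element (ERSE) was searched as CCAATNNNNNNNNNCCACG, its second form (ERSE-II) as ATTGG and CCACG 1 base apart, the sterol element as TCACNCCAC, the heat shock element as GAANNTTCNNGAA and the lysosomal element as TCACGTGA, each on both strands, and a match is a description of the letters only.
ERSE, Hspa5, chr2:34771840-34772089, plus strand: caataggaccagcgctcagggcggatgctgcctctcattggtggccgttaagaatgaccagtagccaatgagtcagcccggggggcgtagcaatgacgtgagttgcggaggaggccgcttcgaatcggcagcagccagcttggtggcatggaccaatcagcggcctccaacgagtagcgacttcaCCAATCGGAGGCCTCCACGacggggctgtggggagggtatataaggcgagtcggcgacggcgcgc
ERSE, Creld2, chr15:88819396-88819645, plus strand: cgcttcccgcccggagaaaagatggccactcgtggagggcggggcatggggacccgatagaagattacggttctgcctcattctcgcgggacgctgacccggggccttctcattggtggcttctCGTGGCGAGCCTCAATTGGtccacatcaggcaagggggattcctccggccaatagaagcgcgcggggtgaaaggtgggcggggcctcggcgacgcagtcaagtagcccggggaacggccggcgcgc
ERSE, Dnajc3, chr14:118937682-118937931, plus strand: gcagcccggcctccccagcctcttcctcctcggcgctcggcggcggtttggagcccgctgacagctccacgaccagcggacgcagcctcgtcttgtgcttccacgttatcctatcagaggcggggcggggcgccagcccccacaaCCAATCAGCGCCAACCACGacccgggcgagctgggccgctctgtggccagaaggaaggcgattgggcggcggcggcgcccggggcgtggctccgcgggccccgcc
ERSE, Syvn1, chr19:6046326-6046575, plus strand: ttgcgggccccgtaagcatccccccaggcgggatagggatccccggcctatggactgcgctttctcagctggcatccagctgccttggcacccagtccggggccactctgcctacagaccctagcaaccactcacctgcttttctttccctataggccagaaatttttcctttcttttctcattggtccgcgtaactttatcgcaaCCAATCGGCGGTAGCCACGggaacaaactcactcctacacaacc
ERSE-II, Herpud1, chr8:94386179-94386428, plus strand: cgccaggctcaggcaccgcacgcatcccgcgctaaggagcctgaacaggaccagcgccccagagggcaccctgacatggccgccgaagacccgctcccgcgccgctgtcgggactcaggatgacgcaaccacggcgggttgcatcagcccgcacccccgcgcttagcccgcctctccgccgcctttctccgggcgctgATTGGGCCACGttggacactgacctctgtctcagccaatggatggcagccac
sterol element, Hmgcs1, chr13:119690101-119690350, plus strand: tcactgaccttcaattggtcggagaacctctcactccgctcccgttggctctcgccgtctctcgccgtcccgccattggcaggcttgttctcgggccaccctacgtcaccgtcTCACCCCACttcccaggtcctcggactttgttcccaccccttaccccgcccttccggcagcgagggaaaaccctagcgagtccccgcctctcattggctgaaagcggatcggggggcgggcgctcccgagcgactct
lysosomal element, Dpp7, chr2:25356333-25356582, minus strand: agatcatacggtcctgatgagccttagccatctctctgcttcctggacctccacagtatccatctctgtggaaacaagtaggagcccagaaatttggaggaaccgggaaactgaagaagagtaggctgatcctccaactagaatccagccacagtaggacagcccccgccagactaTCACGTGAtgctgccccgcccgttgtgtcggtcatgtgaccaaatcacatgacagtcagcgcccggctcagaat

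ERSE was found in 37 of 32851 promoters of this length (0.113%), and 8 of the 22 members of the ER chaperone list that had a promoter entry held it. These 8 were Hspa5, Hsp90b1, Calr, Canx, Pdia6, Creld2, Dnajc3 and Ero1lb, and Syvn1 and Derl3 of the degradation list held it too. ERSE-II stood in 10 promoters (0.0304%), of which Herpud1 was one. The sterol element was found in 1.05% of all promoters and in 1 of 15 cholesterol synthesis genes with an entry, Hmgcs1. The lysosomal element was found in 0.785% of all promoters and in 5 of 32 genes of the lysosome list. The heat shock element was found in 0.466% of all promoters and in 2 of 22 genes of the heat shock list, Hspd1 and Hspe1. The shares over all promoters count start sites, whereas a listed gene counted when any of its start sites matched. A gene with several start sites thus had more chances, and the 2 kinds of share are not fully alike.

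At 6 h, 201 genes were upregulated and 123 were downregulated, which is 1.35% and 0.823% of the genes tested. A gene is called upregulated or downregulated here when edgeR's quasi-likelihood test gave a Benjamini-Hochberg adjusted p under 0.05 and the log2 fold change was at least 0.58 in size. At the adjusted p alone, 2111 genes (14.1%) were higher and 1949 (13%) were lower, so most differences were small. Of the called genes, 86 upregulated and 36 downregulated ones had a mean of at least 100 counts per library. All 201 upregulated and all 123 downregulated genes had the same sign in B27 and in B31. The calls came from these same libraries, so this agreement was largely fixed in advance and is no replication. It was fixed for the 177 upregulated and 109 downregulated genes whose groups did not overlap in CPM. Within B27, 69 genes were upregulated and 42 downregulated, and within B31 128 and 63. Both contrasts came from a model of both experiments with a shared estimate of the spread, so neither experiment was tested by itself. The median log2 fold change over all genes was 0.00. Leaving out stretched replicate 9 lowered the calls to 130 up and 81 down.

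**Figure D1:**
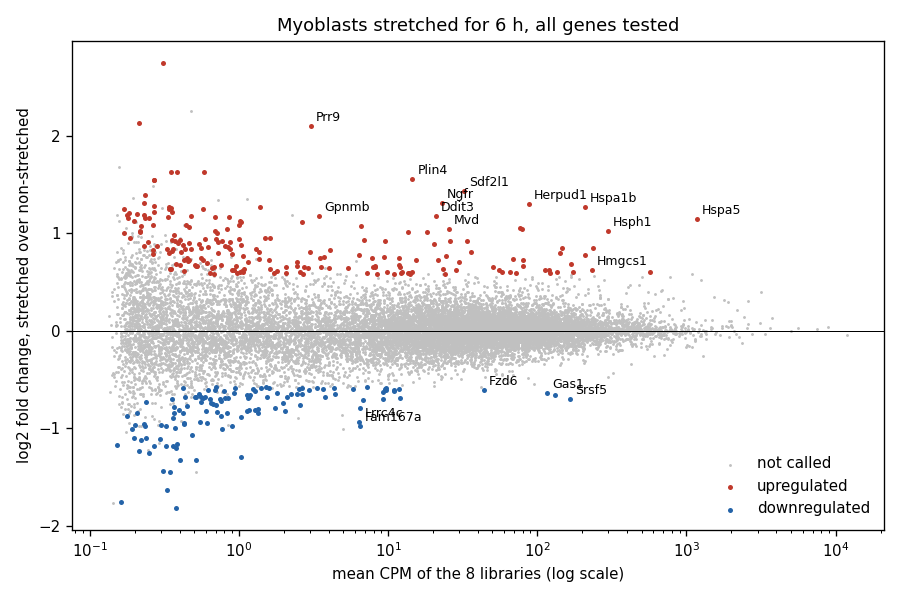
Log2 fold change at 6 h (stretched over non-stretched, vertical axis) against the mean CPM of the 8 libraries (log scale) for the 14938 genes tested; red points are the 201 upregulated genes, blue points the 123 downregulated genes and grey points the rest. Among abundant genes the red points outnumber the blue ones, with Hspa5, Hsph1 and Hspa1b near a log2 fold change of 1 above 100 CPM, and Prr9 is the highest labelled point.

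The libraries held between 54065776 and 64699502 counts. The 4 stretched libraries were not alike. For many called genes, though not for all, replicates 7 and 9, which come from different experiments, stood farther from the non-stretched libraries than replicates 8 and 10. A distance over all genes was not measured. Replicates 7 and 9 were the 2 highest stretched libraries for 97 of the 201 upregulated genes (48.26%) against 21.82% of all genes tested, and the 2 lowest for 55 of the 123 downregulated genes (44.72%) against 22.79% of all genes. With both of them left out, an alternative added after the values were seen, 88 genes were upregulated and 55 downregulated. Leaving out both also cut the stretched group to 2 libraries. No other pair was left out, so the part of sample size in this drop was not tested. Of the genes called with all libraries, 79 upregulated and 38 downregulated ones were still called. Non-stretched replicates 7 and 8 differed by 2.74 times the sampling noise of counts (mean chi-square per gene), the other pairs within a group by 11.8 to 47.6 times, and no library was counted as a copy of another.

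Markers of the cell types were checked on the summed CPM of each list. All 8 myoblast markers (among them Myod1, Myf5 and Des) were measured. Their sums, mostly Vim, were 10280 to 11050 CPM in non-stretched and 9996 to 11080 CPM in stretched libraries. The sums therefore say little about Myod1, Myf5 and Des. Markers of differentiated muscle cells (Myog, Ckm, Myh3 and others) summed to between 10.6 and 12.9 CPM in all 8 libraries. Fibroblast markers, mostly Col3a1, summed to 1151 to 1312 CPM without and 1075 to 1194 CPM with stretch, and Lum was at 0. The sums of adipocyte, endothelial and leukocyte markers stayed below 20 CPM, with Lep, Tie1 and Adgre1 at 0 in all 8 libraries. Keratinocyte markers, mostly Krt14, summed to 13.9 to 16.9 CPM in non-stretched libraries. They were above that range in all stretched ones, up to 21.2 CPM, with Krt1 at 0. Of the 4 that were tested, 2 were upregulated at about 1 CPM, Krt16 (log2 fold change 1.08) and Lor (0.92). Krt10 had a negative value (-0.21) that did not pass. Krt16 shares 51.9% of its stretches of 31 bases with other genes.

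ER chaperones and folding enzymes were the group with the most upregulated members. Of 25 genes, all tested, 9 were upregulated and none was downregulated, 20 rose at the adjusted p alone, and the one that fell was Sil1, a nucleotide exchange factor of BiP, with a log2 fold change of -0.27. The median log2 fold change of the list was 0.45, against 0.00 over all genes. The median was 0.47 in B27 and 0.46 in B31.

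Hspa5, which encodes BiP, the Hsp70 of the ER, was at 730.1, 732, 718 and 751 CPM (counts scaled to a common library size) in non-stretched replicates 7 to 10. In the stretched replicates 7 to 10 it was at 2039, 1100.2, 2153 and 1175 CPM. All 4 stretched libraries lay above all 4 non-stretched ones, and replicates 7 and 9 were well above replicates 8 and 10. The mean rose from 733 ± 13.5 to 1617 ± 556 CPM (mean ± SD, n = 4), a log2 fold change of 1.14 with a standard error (SE) of 0.19 (adjusted p = 0.00146). With stretched replicates 7 and 9 left out, the log2 fold change was 0.63 and the adjusted p was 5.80e-06.

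Sdf2l1, a partner of BiP that slows aggregation, had between 16.9 and 18.9 CPM without stretch and 62.1, 26.9, 71.5 and 28.1 CPM with stretch, a log2 fold change of 1.43 ± 0.28 (SE, adjusted p = 0.00394). The cochaperone gene Dnajb9 followed the same order of libraries, from 17.7 to 18.5 CPM without stretch to 39.7, 27.4, 42.1 and 27.4 CPM with it. The other upregulated members were Creld2, a secreted disulfide isomerase (log2 fold change 1.06), Hyou1, the exchange factor of BiP (0.85), the cochaperone Dnajc3 (0.84), the secreted chaperone-like factor Manf (0.79), the disulfide isomerase Pdia4 (0.78) and the ER oxidase Ero1lb (0.73). The abundant lectin chaperone Calr, at 875 ± 21.0 and 1304 ± 238 CPM, fell just short of the fold threshold (adjusted p = 0.00192), and Hsp90b1, the ER member of the Hsp90 family, had a log2 fold change of 0.52. In all of these genes the stretched and non-stretched libraries did not overlap, as in 177 of the 201 upregulated genes. With stretched replicates 7 and 9 left out, 3 of the 9 (Hspa5, Sdf2l1 and Dnajb9) still passed both thresholds, and the 6 others kept their direction.

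Genes for the degradation of ER proteins gave fewer calls, 3 upregulated of 19 tested (20 listed), with 10 higher and 2 lower at the adjusted p alone and a median of 0.10. The 3 called genes belong to 1 membrane complex. Herpud1, a scaffold of that complex, was at 49.4 to 53.1 CPM in non-stretched libraries and at 151, 88.6, 163 and 96.2 CPM in stretched ones (log2 fold change 1.29 ± 0.17, adjusted p = 4.09e-04). Syvn1, its ubiquitin ligase, rose from 52.0 ± 3.31 to 107 ± 32.0 CPM (log2 fold change 1.04), and Sel1l, the adaptor of the ligase, from 109 ± 1.86 to 165 ± 37.7 CPM (0.60). The lectin Erlec1 was lower, with a log2 fold change of -0.27.

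Among 17 sensors and transducers of the unfolded protein response, 2 were upregulated. Ddit3, which encodes the transcription factor CHOP, was at 12.3 to 13.5 CPM without stretch and at 31.8, 22.7, 36.7 and 24.3 CPM with stretch, a log2 fold change of 1.18 ± 0.13 (adjusted p = 1.75e-04). Ficd, an enzyme that modifies BiP, rose from 6.31 ± 0.323 to 9.97 ± 1.12 CPM (log2 fold change 0.66). Both had separate groups in CPM. At the adjusted p alone, Xbp1 (log2 fold change 0.49), the PERK gene Eif2ak3 (0.48) and the IRE1 gene Ern1 (0.13) were higher as well. Atf6 was at 129 ± 3.74 and 126 ± 4.48 CPM (adjusted p = 0.426). Splicing of Xbp1 mRNA, through which it is activated, cannot be read from counts per gene.

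The list for the ATF4 branch leaves out Ddit3 and Ppp1r15a, which were counted among the sensors and transducers above. ATF4 protein was not measured. Of 30 genes for ATF4 targets and amino acid supply, 29 were tested and 0 were called by edgeR's quasi-likelihood test or by DESeq2. At an unadjusted p under 0.05 there were 8, and at the adjusted p 4 were higher and 3 lower (14.1% and 13% of all genes). The mean deviation of the list was 0.02, -0.09, 0.22 and -0.03 in stretched replicates 7, 8, 9 and 10. The median log2 fold change was 0.02. Atf4 itself was at 267 ± 3.57 and 277 ± 13.1 CPM (adjusted p = 0.306), and Asns, which encodes asparagine synthetase, had a log2 fold change of -0.09 (adjusted p = 0.316). The highest member was Gdf15, a stress-responsive secreted factor, with a log2 fold change of 0.44.

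**Figure D2:**
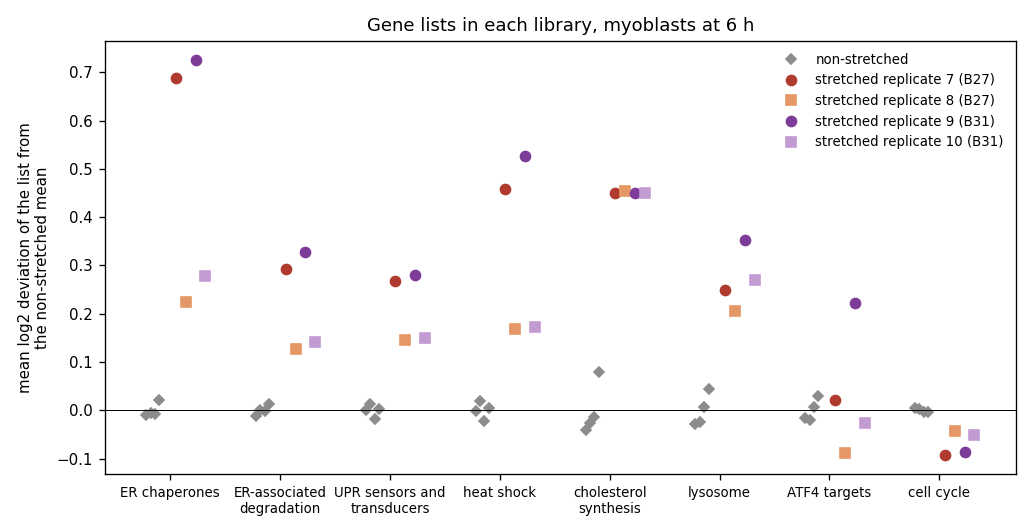
Mean log2 deviation of each gene list from its non-stretched mean (vertical axis, log2 CPM) in every library; grey diamonds are the 4 non-stretched libraries and coloured points the 4 stretched ones. In the ER chaperone list replicates 7 and 9 stand at 0.69 and 0.72 and replicates 8 and 10 at 0.22 and 0.28, whereas in the cholesterol list all 4 stretched libraries stand at 0.45.

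Cytosolic heat shock genes behaved like the ER chaperones. Of 28 genes, all tested, 6 were upregulated, none was downregulated, and 22 rose at the adjusted p alone, with a median of 0.24. The mean deviation of the list was 0.46, 0.17, 0.53 and 0.17 in stretched replicates 7, 8, 9 and 10, the same order of libraries as in the ER lists. Without stretched replicate 9, 3 members were called in place of 6, and 1 without replicates 7 and 9 together.

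Hspa1b, an inducible Hsp70, was at 132, 136, 108 and 113 CPM in non-stretched and at 402, 191, 409 and 170.0 CPM in stretched replicates 7 to 10. Its groups did not overlap, and the log2 fold change was 1.26 ± 0.26 (adjusted p = 0.0044). Hspa1a, at 8.82 ± 0.849 and 13.2 ± 2.65 CPM, shares 63.8% of its stretches of 31 bases with Hspa1b, so the division of reads between this pair is uncertain. Hsph1, an exchange factor of Hsp70, rose from 196 ± 7.08 to 399 ± 139 CPM (log2 fold change 1.03), with 507 and 531 CPM in replicates 7 and 9 and 273 and 285 CPM in replicates 8 and 10. Dnajb1 (0.59), the cochaperone of Hsp70, and Dedd2 (0.65) had lower fold changes.

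Zfand2a, a proteasome-linked gene induced by misfolded protein, departed from this order. It was at 81.5, 80.5, 93.0 and 88.1 CPM in the stretched libraries against 48.7 to 54.3 CPM in the non-stretched ones (log2 fold change 0.74 ± 0.05, adjusted p = 1.35e-05). The constitutive chaperone Hspa8, among the most abundant members at 2744 ± 35.6 CPM, had a log2 fold change of 0.40, and it shares 43.5% of its stretches of 31 bases with other genes. Hsf1, the factor of this response, was at a log2 fold change of 0.03.

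**Figure D3:**
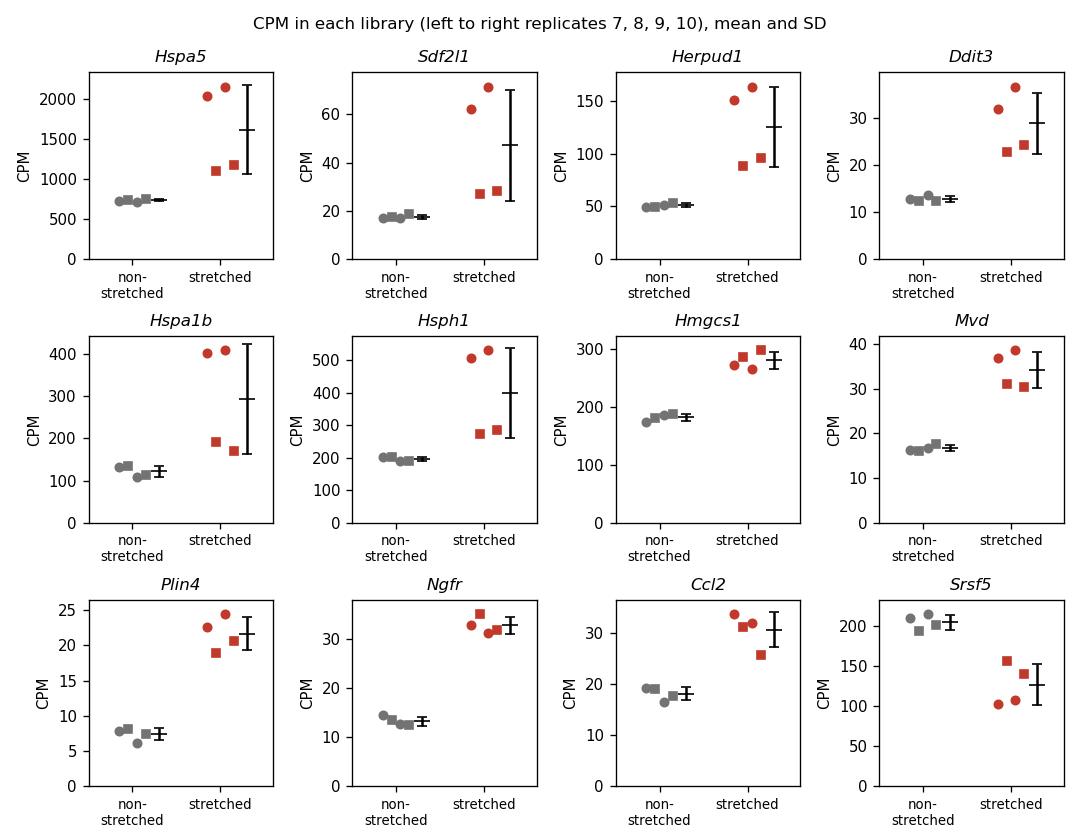
CPM (vertical axis, from 0) of 12 genes in each library, with replicates 7, 8, 9 and 10 from left to right, circles for replicates 7 and 9, squares for replicates 8 and 10, grey for non-stretched and red for stretched cells; the bar at the right of each group is the mean with its SD. The stretched circles lie well above the squares for Hspa5, Sdf2l1, Herpud1, Hspa1b and Hsph1 and below them for Srsf5, while the 4 stretched libraries of Hmgcs1 lie between 266 and 298 CPM.

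Cholesterol synthesis enzymes rose almost as a block and evenly in the 4 stretched libraries. Of 20 enzymes, all tested, 19 rose at the adjusted p alone and the groups of these 19 did not overlap in CPM. The exception was Pmvk, with a log2 fold change of 0.02. Separate groups were common among called genes, in 177 of the 201 upregulated and 109 of the 123 downregulated ones. Most of the 19 enzymes were not called, and the share of separate groups among all genes tested is not given here. Separate groups therefore add little to the test. The median of the enzymes was 0.44 (0.47 in B27 and 0.43 in B31), and 3 members passed the fold threshold as well.

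Hmgcs1, which makes HMG-CoA, was at 175, 181, 186 and 188 CPM without and at 273, 287, 266 and 298 CPM with stretch (log2 fold change 0.62 ± 0.04, adjusted p = 7.52e-06). Mvd, which makes isopentenyl diphosphate, rose from 16.7 ± 0.622 to 34.3 ± 4.13 CPM, a log2 fold change of 1.04, and Msmo1, a sterol demethylase, from 94.0 ± 4.31 to 145 ± 1.06 CPM (0.62). With stretched replicates 7 and 9 left out, Hmgcs1 had a log2 fold change of 0.68 and Mvd of 0.88, and the 3 genes stayed called.

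Of 18 genes for SREBP control, sterol uptake and sterol export, 2 were upregulated and 7 were higher at the adjusted p alone. Insig1, itself a SREBP target, was at 57.0 to 64.5 CPM without and at 94.8, 105, 94.9 and 103 CPM with stretch (log2 fold change 0.73 ± 0.05, adjusted p = 8.36e-06). Lpin1, a phosphatidate phosphatase, rose from 5.76 ± 0.386 to 8.71 ± 0.637 CPM (0.60). The genes of the factors themselves, Srebf1 (-0.01, adjusted p = 0.897) and Srebf2 (0.07, adjusted p = 0.187), had small values that did not pass.

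In the neighbouring lipid lists, the fatty acid synthase gene Fasn rose from 453 ± 22.4 to 688 ± 118 CPM (log2 fold change 0.60) and the fatty acid transporter gene Slc27a1 from 88.8 ± 4.91 to 137 ± 13.1 CPM (0.63), the 2 called of 17 tested genes for fatty acid synthesis and desaturation. Of 17 tested genes for lipid droplets and fatty acid handling, 4 were upregulated. Plin4, a lipid droplet coat protein, was at 7.80, 8.16, 6.19 and 7.43 CPM without and 22.6, 19.0, 24.5 and 20.6 CPM with stretch, a log2 fold change of 1.55 ± 0.09 (adjusted p = 6.92e-06). The stretched libraries of Plin4 were all far above the non-stretched ones. Pdp2, a phosphatase of pyruvate dehydrogenase, and Abhd15 each had a log2 fold change of 0.59, and Fabp3, a fatty acid binding protein of muscle, had 0.84 with groups that touched (0.750 to 1.13 and 1.13 to 2.16 CPM). Leaving out stretched replicate 9 left 1 of these 4 called, Plin4.

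Lysosome genes were higher in most cases, with small fold changes. Of 37 genes of the lysosome and TFEB/TFE3 list, all tested, 25 were higher and 3 lower at the adjusted p alone. Of the same list, 5 were upregulated and none was downregulated, with a median of 0.25. Among all genes, 14.1% were higher and 13% lower at the adjusted p alone, and 1.35% were upregulated. Gpnmb, a membrane glycoprotein induced by lysosomal stress, was at 1.61 to 2.51 CPM without and at 4.14, 3.01, 6.33 and 5.55 CPM with stretch (log2 fold change 1.17 ± 0.22, adjusted p = 0.00268). Dpp7, a lysosomal peptidase, was at 24.2 ± 4.12 CPM with stretch, a log2 fold change of 1.01. Flcn, a regulator of the lysosomal Rag GTPases (0.70), the amino acid transporter Slc38a7 (0.66) and the sialidase Neu1 (0.63) were the others. Sqstm1, an autophagy receptor, was higher at the adjusted p alone (0.47). Of the factors, Tfeb was at 8.48 ± 0.385 and 8.88 ± 0.262 CPM (adjusted p = 0.385), and Tfe3 fell from 87.1 ± 3.64 to 76.3 ± 3.75 CPM (log2 fold change -0.19, adjusted p = 0.00611).

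Secreted signals were measured as chemokines and as growth factors. Of 29 chemokines, cytokines and receptors, 21 were tested, 6 were upregulated and none was downregulated, although the median was 0.05. Ccl2, which attracts monocytes, was at 16.6 to 19.4 CPM without and at 33.8, 31.4, 32.0 and 25.9 CPM with stretch (log2 fold change 0.76 ± 0.08, adjusted p = 1.11e-04), and the related Ccl7 rose from 6.60 ± 0.887 to 12.4 ± 2.15 CPM (0.92). Cxcl12, a chemokine for muscle precursors and blood cells, rose from between 14.2 and 18.5 CPM to between 22.7 and 32.7 CPM (0.72), with higher levels in B31 than in B27 in both groups. The receptor genes Csf2rb (1.62) and Cxcr6 (0.80) and the endotoxin coreceptor gene Ly96 (0.64) were low, Csf2rb at 0.188 ± 0.0274 and 0.581 ± 0.0104 CPM. The 6 calls were the same number in every alternative fit of this list except the edgeR test against the fold-change threshold itself, which left 0 of them and 4 genes in all.

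Of 40 tested growth factors and receptors, 5 were upregulated and 2 downregulated, against 1.35% and 0.823% of all genes. Ngfr, the low-affinity neurotrophin receptor, had the smallest adjusted p among the genes named here: 14.5, 13.4, 12.6 and 12.5 CPM without and 32.7, 35.1, 31.2 and 31.9 CPM with stretch, a log2 fold change of 1.30 ± 0.05 (adjusted p = 6.94e-07). The stretched libraries of Ngfr differed from each other by less than 4 CPM. The others were Kdr, a VEGF receptor (1.26, at 0.208 ± 0.0471 and 0.499 ± 0.0869 CPM), Angpt2 (0.70), Igfbp3, an IGF binding protein (0.66), and Vegfc (0.64). Of the endothelial markers only Kdr had enough counts to be tested, and Tie1 was at 0. Bmp4 fell from 5.24 ± 0.633 to 3.49 ± 0.535 CPM (-0.59), as did Fgfr4, a receptor of muscle precursors (-0.59).

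Developmental signalling genes moved in both directions. Of 40 tested genes of Wnt, Notch, Hedgehog and Fat cadherin signalling, 3 were upregulated and 5 downregulated, with a median of -0.03. Among all genes, 1.35% were upregulated and 0.823% downregulated. Fzd6, a Wnt receptor, fell from 49.9, 51.9, 56.7 and 53.1 CPM to 31.3, 40.6, 27.8 and 39.3 CPM (log2 fold change -0.61 ± 0.10, adjusted p = 0.00147). Gas1, a Hedgehog coreceptor, was at 155, 161, 121 and 130.0 CPM without and at 97.8, 116, 71.2 and 79.6 CPM with stretch (-0.63). Within each experiment the groups of Gas1 were well apart, with log2 fold changes of -0.56 in B27 and -0.74 in B31. The others that fell were the cadherin gene Dchs2 (-0.88), Frat2 (-0.75) and Dkk3 (-0.70), whose call was lost with DESeq2 (adjusted p = 0.0876) and without a filter on low counts (adjusted p = 0.0618). Hey2, a Notch target (0.93), the cadherin gene Fat4 (0.64) and Dact2 (0.60) were the upregulated ones, and of these Fat4 had groups that overlapped. Without stretched replicate 9, 1 gene of this list was called up and 2 down, and without replicates 7 and 9 together 2 were called down and none up.

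Immediate early genes, which are known to respond within the first hour of a stimulus, were split at 6 h. Of 32, 8 were higher and 7 lower at the adjusted p alone (14.1% and 13% of all genes), with a median of 0.02, and 1 was upregulated, the nuclear receptor gene Nr4a3, from 0.541 ± 0.0997 to 1.12 ± 0.271 CPM (log2 fold change 1.05). Fos was at 1.69 ± 0.173 and 1.75 ± 0.218 CPM (adjusted p = 0.819), and Egr1 was lower in stretched cells, at 114 ± 6.28 and 77.9 ± 7.25 CPM (-0.54, adjusted p = 1.84e-04). Of 17 YAP and TEAD targets, 1 was upregulated, the matricellular gene Wisp2, at 0.172 ± 0.0267 and 0.532 ± 0.149 CPM (1.62). The classical YAP targets Ctgf (-0.45) and Cyr61 (-0.26) were lower at the adjusted p alone. Wisp2 rests on few counts, and the filter of at least 10 counts in every library left it out.

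Muscle genes were called in both directions. The counts below stand against 1.35% upregulated and 0.823% downregulated among all genes. Of 21 tested regulators of muscle differentiation, 2 were downregulated, Rbm24, a splicing factor of muscle (-0.76), and Klhl31 (-0.70), both below 2 CPM in every library, and neither was called with stretched replicates 7 and 9 left out. The myoblast factor Myf5 rose from 49.7 ± 4.48 to 65.4 ± 4.06 CPM, under the fold threshold (0.40), and Myod1 was at a log2 fold change of 0.00 (adjusted p = 1.00). At the adjusted p alone, 4 regulators were higher and 6 lower, against 14.1% and 13% of all genes. Among the lower ones were Myog (-0.54, adjusted p = 0.0356) and Pax7 (-0.23, adjusted p = 0.00587). Myog did not pass with DESeq2 (adjusted p = 0.0678). Of 28 tested sarcomere and contractile genes, 2 were upregulated and 2 downregulated. Mylk2, the myosin light chain kinase of skeletal muscle, was at 3.67, 4.06, 4.50 and 4.79 CPM without and at 8.10, 6.84, 10.7 and 10.1 CPM with stretch (log2 fold change 1.07 ± 0.14, adjusted p = 3.58e-04). Xirp1, an actin-binding protein of muscle junctions, rose from 8.88 ± 0.642 to 14.8 ± 3.18 CPM (0.74), whereas its relative Xirp2 (-0.64) and Lmod1 (-0.68), an actin nucleator, fell.

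Srsf5, an SR protein that promotes exon inclusion, was at 209, 193, 215 and 201 CPM without and at 103, 156, 107 and 139.7 CPM with stretch (log2 fold change -0.70 ± 0.11, adjusted p = 0.00123). The lowest levels of Srsf5 were in replicates 7 and 9. It was the 1 call among 19 tested SR protein genes and kinases, of which 6 were higher and 3 lower at the adjusted p alone. By that measure 14.1% of all genes were higher and 13% lower. Rsrp1, an arginine and serine rich gene, was just below the fold threshold (0.55), and Srsf4 had a log2 fold change of -0.12.

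Cell cycle genes were slightly lower. Of 32 genes, 0 were called by edgeR's quasi-likelihood test or by DESeq2, 18 had an unadjusted p under 0.05, 12 were lower at the adjusted p alone and 1, Cdk4, was higher, with a median of -0.06. Ccnb1, cyclin B1, was at 247 ± 3.08 and 224 ± 8.48 CPM (log2 fold change -0.14, adjusted p = 0.00685) and the proliferation marker Mki67 at 589.6 ± 47.0 and 528 ± 90.0 CPM (adjusted p = 0.269).

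Matrix genes were split, with 3 upregulated and 3 downregulated of 40 tested. The calls in this paragraph stand against 1.35% upregulated and 0.823% downregulated among all genes. Ogn, a small proteoglycan, fell from 14.9 ± 1.24 to 9.27 ± 1.83 CPM (log2 fold change -0.69), Spon2 had -0.64 and Reck, an inhibitor of matrix proteases, -0.58. Mmp15, a membrane metalloprotease (0.65), the protease Pappa (0.61) and Tnxb (0.84, groups overlapping) rose. In the clock list of 18 genes, Dbp fell from 4.69 ± 0.566 to 2.92 ± 0.162 CPM (-0.68) and Hlf, of the same PAR bZIP family, rose from 0.246 to 0.429 CPM on average (0.80). Gsta1 was the 1 call among 16 NRF2 targets (0.59), lost in the model of 24 libraries (adjusted p = 0.0577), and it shares 92.9% of its stretches of 31 bases with other genes. Of 12 tested mechanosensitive channel genes, 0 were called by edgeR or DESeq2, 4 had an unadjusted p under 0.05 and 2 were lower at the adjusted p. By that last measure 13% of all genes were lower. Of 302 tested Zfp zinc finger genes, 3 were upregulated and 1 downregulated, no larger a share than among all genes.

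The largest changes among genes with at least 100 counts on average and separate groups included genes outside these lists. Prr9, a gene of the epidermal differentiation complex on chromosome 3, had 1.24, 1.29, 1.11 and 0.991 CPM without and 4.83, 4.36, 6.69 and 3.89 CPM with stretch (log2 fold change 2.09 ± 0.17, adjusted p = 3.37e-05). The 11 other largest rises were Plin4, Sdf2l1, Ngfr, Herpud1, Hspa1b, Ddit3, Gpnmb, Hspa5, Mylk2, Creld2 and Syvn1. They belong to the lists above.

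Under the same limits on counts and overlap, the largest fall was that of Fam167a, from 8.99, 9.22, 8.09 and 8.03 CPM to 4.60, 4.64, 4.05 and 4.18 CPM (log2 fold change -0.97 ± 0.07, adjusted p = 1.84e-05). Lrrc4c and Lingo2 encode neuronal adhesion proteins with leucine-rich repeats. Lrrc4c fell from 8.43 ± 0.337 to 3.08, 6.31, 2.83 and 5.50 CPM (-0.93) and Lingo2 from 8.16 ± 0.243 to 4.73 ± 0.508 CPM (-0.79). The order of the stretched libraries of Lrrc4c was that of the ER genes turned over, lowest in replicates 7 and 9, whereas the 4 stretched libraries of Fam167a and Lingo2 lay close together. Card14 (-0.82), Scara3 (-0.80), the centrosome gene Cep72 (-0.76), Frat2 (-0.75), Zc3h6 (-0.71), Gm9747 (-0.70), Srsf5 (-0.70), Ogn (-0.69) and the transcription factor gene Pax5 (-0.68) made up the 12.

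The 6 h effect was then set against the effects at 1 h and 3 h, each measured against its own non-stretched libraries. In one model of the 24 myoblast libraries, 377 genes (2.4% of 15684 tested) had a higher stretch effect at 6 h than at 1 h and 120 (0.765%) a lower one. Against 3 h, 437 genes (2.79%) were higher and 146 (0.931%) lower. Of the 201 genes upregulated at 6 h, 1 was upregulated at 1 h and 6 at 3 h. Of the 123 downregulated ones, 5 were downregulated at 1 h and 8 at 3 h. The total number of genes called at each earlier time is not given here. Few calls at those times would by themselves make the overlap small. These counts therefore do not show that the 6 h genes are a distinct set.

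The ER chaperones had median log2 fold changes of 0.03, 0.03 and 0.45 at the 3 times, and 9 of the 25 had a higher effect at 6 h than at 1 h. Hspa5 was at 0.07 and 0.11 at the earlier times (difference between 6 h and 3 h 1.03, adjusted p = 1.60e-04). The cholesterol enzymes had medians of -0.13, 0.01 and 0.44, with 11 of 20 above their 1 h effect and 3 above their 3 h effect, and Hmgcs1 went from -0.33 over 0.17 to 0.62. Immediate early genes ran the other way, with medians of 0.28, 0.11 and 0.02 and 11 of 32 with a lower effect at 6 h than at 1 h. Heat shock genes had medians of 0.05, 0.06 and 0.24 and lysosome genes of 0.05, 0.04 and 0.25.

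For some genes a difference between the 6 h and 3 h effects was not detected, which does not show that they were equal. Flcn was at -0.14, 0.85 and 0.70 in order of time, and its 6 h and 3 h effects did not pass the test of the difference (adjusted p = 0.202). Ccl2 followed with 0.29, 0.95 and 0.76, Cxcl12 with 0.01, 0.51 and 0.72, and Zfand2a with 0.23, 0.61 and 0.74, and none of these passed between 6 h and 3 h (adjusted p = 0.223, 0.359 and 0.175). Ngfr had 0.21, 0.65 and 1.30 and passed both tests. Srsf5 changed sign, from 0.11 and 0.41 to -0.70 (6 h minus 3 h, -1.10, adjusted p = 4.04e-07).

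**Figure D4:**
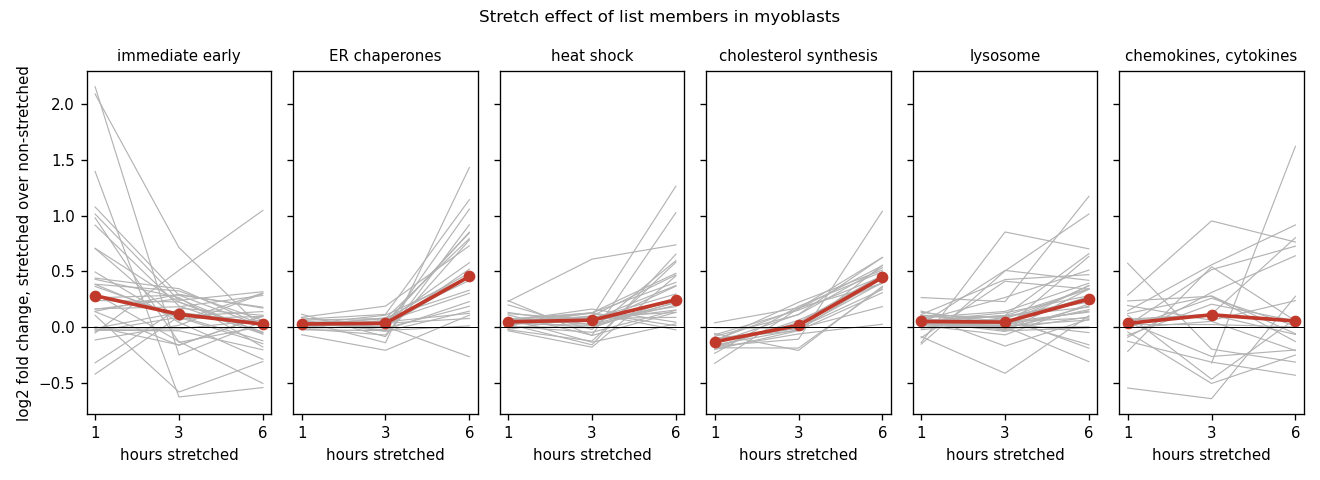
Log2 fold change (stretched over non-stretched, vertical axis) of the members of 6 gene lists in myoblasts against the hours of stretch (1, 3 and 6, horizontal axis); grey lines are genes and the red line is the median of the list. The immediate early genes start high and end near 0, while the ER chaperone median runs from 0.03 to 0.45 and the cholesterol median from -0.13 to 0.44.

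The same 6 h of stretch in differentiated cells served as the comparison between stages. In one model of 16 libraries, 84 genes (0.517% of 16254) had a higher stretch effect in myoblasts and 20 (0.123%) a lower one. DESeq2 gave 92 and 28, the higher count was 50 without non-stretched replicate 9 and 49 without stretched replicate 9, and a replicate block lowered the second count to 13. The ER chaperones had a median of 0.30 in differentiated cells, against 0.45 in myoblasts, and 0 of 25 passed the test of the difference with edgeR, while 4 had an unadjusted p under 0.05. For Hspa5 the effects were 1.14 and 0.68, a difference of 0.47 that did not pass (adjusted p = 0.379). The cholesterol medians were 0.44 and 0.52, and the effects of Hmgcs1 were 0.62 and 0.63.

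Several genes responded more in myoblasts. Plin4 had log2 fold changes of 1.55 in myoblasts and 0.41 in differentiated cells (difference 1.15, adjusted p = 3.96e-04), Herpud1 1.29 and 0.40 (0.90, adjusted p = 0.0213), Mylk2 1.07 and 0.09 (0.98, adjusted p = 0.00737) and Ccl7 0.92 and 0.21 (0.71, adjusted p = 0.0281). Of the genes that fell, Fam167a had -0.97 and -0.28 (adjusted p = 5.42e-04) and Frat2 -0.75 and 0.03 (adjusted p = 0.0201). Csf2rb had 1.62 in myoblasts and -0.80 in differentiated cells, both at low counts (adjusted p of the difference 0.00317). The differentiated libraries came from other experiments, coded B25 and B28, which cannot be told apart from the stage.

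**Figure D5:**
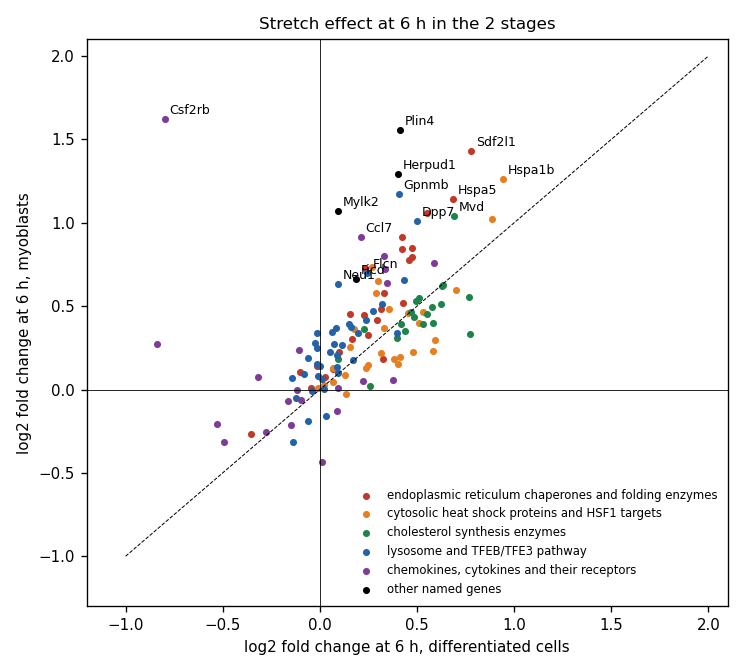
Log2 fold change at 6 h in myoblasts (vertical axis) against that in differentiated cells (horizontal axis) for the tested members of 5 gene lists and 4 other named genes; the dashed line marks equal effects. Most ER chaperone and lysosome points lie above the line and the cholesterol points lie around it, and Csf2rb is far to the left at -0.80.

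Between the experiments, 0 genes had a stretch effect in B31 that passed as higher or lower than that in B27 (0% of 14938), by edgeR's quasi-likelihood test and by DESeq2, and 323 had an unadjusted p under 0.05. Without a filter on low counts, 27 genes were higher and 14 lower. With 2 libraries per group and experiment this test finds large differences only. Plin4 had log2 fold changes of 1.38 in B27 and 1.73 in B31, Prr9 1.86 and 2.33, and Rbm24 -1.14 and -0.36.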

How the data were processed

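Stretched and non-stretched C2C12 myoblasts were compared at 6 h with 4 libraries each, grouped by the labels. The authors sequenced stranded mRNA libraries and deposited one table per stage with whole-number counts per gene symbol. The submitters' processing notes name STAR, Salmon, DESeq2 and the mm10 build. Estimated counts may divide reads among genes that share sequence. There were 0 columns without a label, and the column of stretched replicate 9 at 1 h, whose title spells its experiment differently, was taken as B31.

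Here, the deposited counts were filtered with filterByExpr, scaled with TMM factors and tested with edgeR's quasi-likelihood test (edgeR 4.0.16, limma 3.58.1, R 4.3.3), with p-values adjusted by Benjamini-Hochberg over all genes tested. Calls needed an adjusted p under 0.05 and a log2 fold change not smaller than 0.58 in either direction. Fold changes use edgeR's default prior count, and the log2 CPM behind list deviations and correlations use a prior count of 1. CPM uses TMM-scaled library sizes except for the sums over marker lists, which use raw totals. Effects were compared between times, stages and experiments by interaction contrasts. The scripts were tested on simulated data. Named genes are members of the gene lists, called members first and at most 8 per direction, genes that define a pathway, the 12 largest rises and falls among genes of 100 or more counts on average whose groups were separate, and 5 genes per direction and interaction with the lowest p. The comparison, the gene lists and the genes were chosen with earlier results of these data known. Positions and shared 31-base stretches came from GENCODE vM21 and promoters from RefSeq. DESeq2 1.42.0, other filters and scalings, covariates, a replicate block and left-out libraries were tried as alternatives. Samples of the same number were not taken as paired, and splicing was not analysed here. Some genes that meet the rule for named genes are not reported here.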

Additional observations from a re-analysis of the deposited data

Results flagged for a closer look

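Of 196 sets of 4 libraries examined for a value far from the others, 4 stood out by Dixon's test, which chance alone gives in about 1 of 20 sets. Klhl31 was at 1.26 CPM in non-stretched replicate 9, against 0.784 to 0.837 CPM in the other 3. Slc27a1 was at 117 CPM in stretched replicate 7, against 142 to 145 CPM. Xirp2 was at 1.89 CPM in stretched replicate 10, against 1.18 to 1.28 CPM. The mean log2 deviation of the list for SREBP control, sterol uptake and sterol export was 0.24 in stretched replicate 10, against 0.17 to 0.18.

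The stretch effect differed between 6 h and 1 h for 377 genes in the higher and 120 in the lower direction. Among the genes with the lowest p were enzymes of cholesterol synthesis on the higher side, with differences in log2 fold change of 0.95 for Hmgcs1, 0.77 for Msmo1 and 0.63 for Hsd17b7, together with the zinc finger gene Zfp866 (1.502), whose fold change was -1.51 at 1 h and -0.01 at 6 h. On the lower side they were immediate early or stress-responsive genes, with -2.11 for Fos, -1.94 for Egr1, -1.07 for Cyr61, -0.98 for Dusp1 and -0.98 for Sgk1.

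Between 6 h and 3 h, 437 genes were higher and 146 lower. The differences were 0.90 for Map9, 0.81 for Narf, 0.71 for 4933404O12Rik, 0.63 for Madd and 0.60 for Klhl20. They were -0.98 for Mgea5, -0.92 for the zinc exporter gene Slc30a1, -0.77 for the PAR bZIP gene Tef, -0.75 for Gclc, a subunit of the glutathione-forming ligase, and -0.69 for Arhgap28.

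Between myoblasts and differentiated cells at 6 h, 84 genes had a higher and 20 a lower effect. The differences were 1.27 for Cd28, 1.15 for Plin4, 0.88 for Adgrg1, 0.64 for Ndrg4 and 0.64 for Phospho1, which shares 87.1% of its stretches of 31 bases with other genes. They were -0.84 for Ak4, -0.69 for Fam167a, -0.67 for Dkk2, -0.64 for Hmga2 and -0.60 for Arhgap28.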

How the results depend on the processing

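No called gene named here changed direction under any alternative, while several named genes near a fold change of 0, such as Myod1, changed sign without passing the test. From 201 up and 123 down, the calls at 6 h went to 69 and 42 within B27 and 128 and 63 within B31. Both of these contrasts used a spread estimated from both experiments. The calls were 2111 and 1949 without the fold threshold, and 4 (Mvd, Ngfr, Plin4 and Prr9) and 0 in edgeR's test against that threshold. They were 130 and 81 without stretched replicate 9, and 88 and 55 with stretched replicates 7 and 9 left out, chosen after seeing the data. Leaving out 1 library at a time gave 130 to 244 up and 81 to 141 down at 6 h, 310 to 440 higher and 90 to 132 lower against 1 h, 339 to 498 and 121 to 170 against 3 h, 49 to 92 and 15 to 28 against differentiated cells, and 0 to 1 higher and 0 to 0 lower in B31 against B27. Without a filter on low counts, 27 genes were higher and 14 lower in B31 than in B27. DESeq2 (175 and 109), RLE factors, both other filters, the 24-library model and the experiment covariate moved the 6 h counts by less than 1.5 times.

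With the replicate block, the counts were 186 and 122 at 6 h, 384 and 119 against 1 h, 446 and 151 against 3 h, and 64 and 13 (in place of 84 and 20) against differentiated cells. Deviations of same-numbered libraries correlated at 0.21, 0.05, -0.02 and 0.18 for replicates 7 to 10, and not every library correlated best with its own number. Low counts limit the calls: 115 of the upregulated and 87 of the downregulated genes had fewer than 100 counts on average.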

Other observations

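Some genes of the epidermal differentiation complex were upregulated next to Prr9, in a stretch of chromosome 3 that was chosen after its values were seen. Between Lor and Tchh (chr3:92080271-93449077, mm10), 4 of 13 tested genes were upregulated, against 1.35% of all genes. The choice of the window raised this count, since Lor and Tchh bound it. Kprp, Sprr1a, Sprr2a2, Sprr2h and Sprr2k were among the genes tested there and not called. Lor, a protein of the cornified envelope, was at 0.654, 0.437, 0.483 and 0.564 CPM without and at 0.900, 0.950, 1.44 and 0.761 CPM with stretch, and Lce1g, a late envelope gene, at 2.37 to 2.96 and 3.86 to 5.26 CPM, with 36.2% of its stretches of 31 bases shared with other genes. Tchh, the hair follicle protein trichohyalin, had a log2 fold change of 0.84 at about 20 counts, and its call was lost with DESeq2 (adjusted p = 0.0526). The groups were separate for Lor, Lce1g and Tchh, as for 177 of the 201 upregulated genes, and the levels were low. The epidermal keratin gene Krt16, which lies elsewhere, had a log2 fold change of 1.08, whereas Krt10 had -0.21 (adjusted p = 0.384) and Krt1 was at 0.

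Numbered Zfp zinc finger genes were lower at the earliest time and not at 6 h. The median log2 fold change of the list was -0.20 after 1 h, -0.09 after 3 h and 0.08 after 6 h. Of 302 tested genes, 59 had a higher stretch effect at 6 h than at 1 h, against 377 of 15684 genes (2.4%) in all. At 6 h, 61 of the 302 were higher and 21 lower at the adjusted p alone (14.1% and 13% of all genes).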
